A study of Mus musculus with 6 samples.

Results

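Nmrk2 and 6 further genes of NAD synthesis and use were followed in RNA of crude heart mitochondria from Polrmt knockout mice and their controls. The 7 genes, of 39177 identifiers in the count files, were matched by mouse Ensembl identifier to Nmrk2, Nmrk1, Nampt, Nmnat1, Nmnat3, Nadk2 and Nnt, each of which had 1 row. The set was chosen by the counts of Nmrk2 in this same comparison, with its partners added by pathway, so the differences of the 7 genes between knockout and control are given as a description, with intervals and no p-value. The study held 3 control and 3 knockout libraries, each from the heart of 1 C57BL/6N mouse aged 3 to 4 weeks. Controls, titled L/L and labelled Polrmt +/+, carried loxP-flanked Polrmt alleles without cre. Knockouts, titled L/L, cre and labelled Polrmt -/-, carried the same alleles and cre driven by the muscle creatine kinase promoter, which removes exon 3 of Polrmt, the RNA polymerase of mitochondria, in muscle cells. Cells of the heart that are not muscle keep the gene under this promoter. Both groups share the floxed alleles, so the groups differ by cre.

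NAD is the electron carrier of the respiratory chain and the substrate of sirtuins and PARP enzymes, which break it down and release nicotinamide. Cells rebuild it by salvage: Nampt joins nicotinamide to phosphoribose and makes nicotinamide mononucleotide, while the nicotinamide riboside kinases, encoded by Nmrk1 and Nmrk2, make the same mononucleotide from nicotinamide riboside. The Nmnat enzymes then complete NAD. Nmrk1 is known as the broadly expressed kinase and Nmrk2 as the kinase of striated muscle, where it was also described as a protein that binds integrin beta-1. In diseased hearts, a rise of Nmrk2 is a known feature.

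Nmrk2 (ENSMUSG00000004939) lies on the minus strand of chromosome 10, 81198170 to 81202051 of GRCm38, and Nmrk1 (ENSMUSG00000037847) on the plus strand of chromosome 19, 18631950 to 18652428. Both coding sequences hold 588 bases and encode 195 residues. The opening stretches are shown because the kinases carry out the same reaction and their reads must be told apart. In the following GENCODE M21 sequences, read 5′ to 3′ from the start codon, capitals mark bases that are identical in the alignment:
Nmrk2: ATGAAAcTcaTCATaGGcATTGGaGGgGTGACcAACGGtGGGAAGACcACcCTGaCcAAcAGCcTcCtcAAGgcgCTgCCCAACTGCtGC
Nmrk1: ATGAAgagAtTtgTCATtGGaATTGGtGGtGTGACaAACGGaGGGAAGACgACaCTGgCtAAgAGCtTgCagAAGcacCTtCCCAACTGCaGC
Over these first 90 coding bases of Nmrk2, 67 were identical, with a gap of 3 bases. Over the whole coding alignment 63.4% of 576 aligned bases were identical, and the longest run shared by both transcripts was 21 bases. The region before each start is shown because 1 of the kinases was abundant in knockouts and the other was near 0 in every library. RefSeq sequence of GRCm38.p6 on each gene's own strand, up to the first base annotated as transcribed by RefSeq or GENCODE, is given for Nmrk2 at chr10:81202052-81202287 and for Nmrk1 at chr19:18631766-18631949. Capitals mark matches to the motifs named next:
Nmrk2: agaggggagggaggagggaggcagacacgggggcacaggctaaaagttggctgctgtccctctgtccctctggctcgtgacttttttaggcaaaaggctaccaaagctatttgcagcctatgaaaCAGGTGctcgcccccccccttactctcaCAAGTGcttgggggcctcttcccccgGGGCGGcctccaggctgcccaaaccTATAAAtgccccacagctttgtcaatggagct
Nmrk1: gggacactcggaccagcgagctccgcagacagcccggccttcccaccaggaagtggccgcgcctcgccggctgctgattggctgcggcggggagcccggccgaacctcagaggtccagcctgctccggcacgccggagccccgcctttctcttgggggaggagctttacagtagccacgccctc
The Nmrk2 stretch held 2 E-boxes (CANNTG), 1 GC box (GGGCGG) and 1 TATA box (TATAAA), which starts 46 bases before the RefSeq start. Windows of 250 bases before the start held an E-box in 66.2%, a GC box in 32.7% and a TATA box in 12.4% of 32851 RefSeq windows. The Nmrk1 stretch held none of the 10 motifs searched on both strands. The other motifs included the CArG box bound by SRF, known by that name, the ATF4 element spelled TGATGNAA, and TGACG, the core of the cAMP response element. They also included the muscle element M-CAT, searched as CATTCC, and the ERR element, searched as TCAAGGTCA. The AP-1 element was searched as TGANTCA. The element of GATA factors was searched as AGATAA. Of these 7 motifs, TGACG in Nampt was the 1 match among the 5 of 7 genes with a RefSeq promoter entry. Windows holding these ranged from 0.387% for the ERR element to 17.8% for TGACG. These are matches of letters and not sites of binding.

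Control libraries held 2867067 to 3234729 counts in total and knockout libraries 1062030 to 1227997. Transcripts of mtDNA took 79.5% to 83.5% of the control total and 21.1% to 25.8% of the knockout total. Values are therefore given as counts per 1000000 nuclear counts (CPM), after mtDNA genes and 5 loci that collect rRNA reads were left out of the library size, which left 76949 to 109351 counts per control and 126339 to 164004 per knockout. A single count is worth between 6.03 and 12.7 CPM. These are transcripts that sediment with crude mitochondria, so a change of the amount in the heart and of the part that sediments cannot be told apart, and fewer cells of a type cannot be told from less RNA per cell.

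Nmrk2 was near 0 in control hearts and, per length, above all its partners in knockout hearts. Its counts were 1, 0 and 0 in controls 1, 2 and 3 and 94, 110 and 114 in knockouts 1, 2 and 3. Scaled, these were 12.7, 0 and 0 CPM against 744, 767 and 688 CPM. Every knockout stood above every control, with no overlap. The ratio of summed scaled counts was 214 (95% Poisson interval 38.1 to 8466). The fitted log2 fold change was 7.36 ± 0.44 (SE), which ranked 2 among tested genes ordered from the highest value down. The single control count sets both the ratio and the fitted value. The SE of 0.44 understates the counting error of that single count. DESeq2 gave 7.62 ± 1.20 (SE), and the Poisson interval of the ratio is 5.25 to 13.0 in log2. Without control 1 the controls hold no count. Nmrk2 was then 52.1-fold higher in knockouts with 3 counts taken for the remaining 2 controls. The fitted log2 value was 9.58, which depends on the prior. The spread over knockouts was small: the coefficient of variation was 5.57%, where counting alone gives 9.71%. Intervals cover counting error only.

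**Figure D1:**
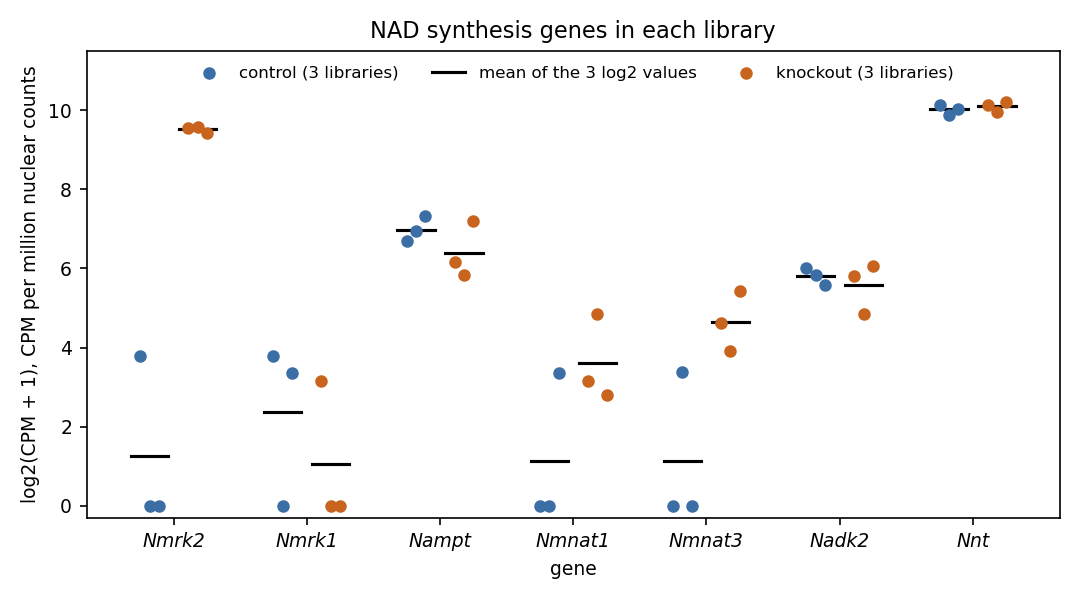
Expression of the 7 NAD synthesis genes in each library, as log2(CPM + 1) scaled to nuclear counts; points are the 3 control and 3 knockout libraries and bars the mean of the log2 values. Nmrk2 stands at 688 to 767 CPM in knockouts and at 0 to 12.7 CPM in controls, while Nnt, Nampt and Nadk2 overlap between the groups.

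The other kinase, Nmrk1, did not share this pattern. It had 1, 0 and 1 counts in controls and 1, 0 and 0 in knockouts, at or under the floor of 3 counts in both groups, so no fold is given. In knockouts, the 318 reads counted to Nmrk2 stood beside 1 counted to Nmrk1.

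Nampt (ENSMUSG00000020572, chromosome 12, 32819545 to 32853349), the rate-limiting enzyme of salvage from nicotinamide, was measured in every library. Its values were 102, 122 and 159 CPM in controls and 71.3, 55.8 and 145 CPM in knockouts. Knockouts 1 and 2 lay below all controls and knockout 3 lay among them. The mean went from 127 ± 29.0 to 90.6 ± 47.6 CPM (SD, n = 3 each), which is a ratio of 0.725 (95% Poisson interval 0.455 to 1.16), an interval that includes no change. The fitted log2 fold change was -0.46 ± 0.35 (SE). Over fits that each left out 1 library, it ranged from -1.0 without knockout 3 to -0.19 without knockout 2. Gdap10, a noncoding gene on the same strand within Nampt, had 5 counts in controls and 2 in knockouts. The authors' deposited table gives a log2 fold change of -0.43 for Nampt. Naprt, the enzyme that uses nicotinic acid, and Qprt, which serves synthesis from tryptophan, had 0 counts in all 6 libraries, which allows a level of up to 18.1 to 38.1 CPM depending on the library (3 counts). They are named after their values were seen.

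The adenylyl transferases that complete NAD were barely detected. Nmnat1 (chromosome 4, 149467572 to 149485202), the enzyme of the nucleus, had 0, 0 and 1 counts in controls and 1, 4 and 1 in knockouts, or 4.03 times as many after scaling (95% Poisson interval 0.489 to 185). Nmnat3 (chromosome 9, 98287435 to 98420438), described as the enzyme of mitochondria, had 0, 1 and 0 counts in controls and 3, 2 and 7 in knockouts. The groups did not overlap, at 0 to 9.36 CPM in controls against 13.95 to 42.2 CPM in knockouts, and the ratio was 8.06 (95% Poisson interval 1.19 to 345), which rests on the 1 count of control 2. Groups did not overlap in 26.0% of all tested genes, and neither gene passed the low-count filter.

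Nadk2 and Nnt act on the matrix pool, where Nadk2 phosphorylates NAD to NADP and Nnt, a proton-driven transhydrogenase of the inner membrane, moves electrons from NADH to NADP. Nadk2 (chromosome 15, 9071260 to 9110891) was at 63.5, 56.2 and 46.7 CPM in controls and at 55.4, 27.9 and 66.4 CPM in knockouts. The groups overlapped, with a ratio of 0.924 (95% Poisson interval 0.463 to 1.88) and a fitted log2 fold change of -0.11 ± 0.50 (SE). Nnt (chromosome 13, 119335448 to 119408997) was the member with the most counts in every library. It had 1118, 945 and 1047 CPM in controls and 1116, 991 and 1189 CPM in knockouts. The groups overlapped over most of their range, and the ratio was 1.07 (95% Poisson interval 0.926 to 1.24, fitted log2 fold change 0.09 ± 0.15 SE). The authors' deposited table gives log2 fold changes of -0.055 for Nadk2 and 0.14 for Nnt. Some mouse substrains lack an intact Nnt. These gene-level counts, found in all 6 libraries, do not resolve exons.

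Of the 7 genes, 4 passed the low-count filter, and 1 of these, Nmrk2, was called higher and 0 lower (edgeR adjusted p under 0.05), beside 10.1% called in either direction, 5.35% higher and 4.71% lower among all 4392 tested genes (9.67%, 5.37% and 4.30% of 4373 nuclear genes). DESeq2 called the same numbers of members, and 0 had a fitted value below 0 at an unadjusted p under 0.05. As the genes were chosen with this comparison known, nothing is read from that count. Nampt, Nadk2 and Nnt were tested and did not pass.

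**Figure D2:**
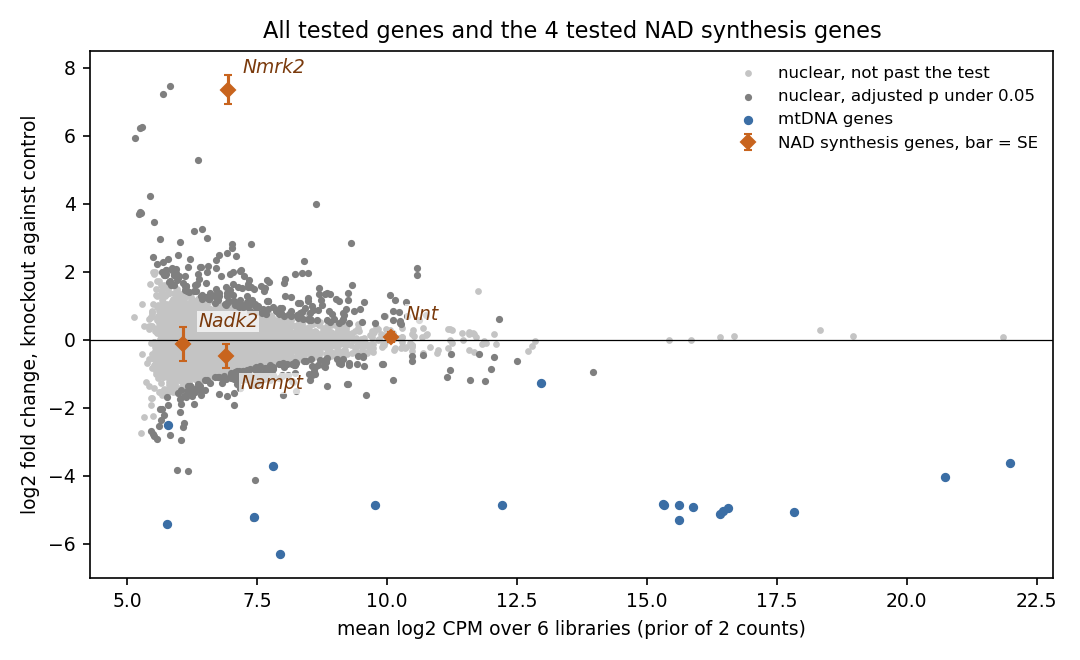
Fitted log2 fold change of knockout against control over the mean log2 CPM of the 6 libraries for all 4392 tested genes, with the 4 tested NAD synthesis genes as diamonds with SE bars and mtDNA genes in blue. Nmrk2 lies at 7.36 and Nampt, Nadk2 and Nnt lie between -0.46 and 0.09, within the bulk of nuclear genes. The bar of Nmrk2 understates the counting error of its single control count.

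The order of levels per length differed between the groups. Per kilobase of annotated exon, control levels were 147 ± 12.4 CPM for Nnt, 25.2 ± 5.75 for Nampt and 10.8 ± 1.65 for Nadk2 (SD, n = 3), and the ranges of these 3 genes did not overlap. The other 4 genes lay at or under 6.85 CPM per kilobase in every control and could not be ordered. In knockouts Nmrk2 led with 395 ± 22.0 CPM per kilobase, above Nnt at 156 ± 14.3 (SD, n = 3), with no overlap. Nampt followed at 17.9 ± 9.41, Nadk2 at 9.75 ± 3.87, Nmnat3 at 5.33 ± 2.87 and Nmnat1 at 4.59 ± 3.99 CPM per kilobase (SD, n = 3), and each of these overlapped the next. Nmrk1 had the lowest level, 0.715 ± 1.24. As a percentage of the counts of all 7 genes, Nmrk2 made up 0.324% ± 0.561 of the control value and 36.6% ± 4.27 of the knockout value (n = 3 libraries each, SD), a share that needs no scaling between libraries.

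Among named and tested nuclear genes other than the members, those with the profile closest to Nmrk2 over the 6 libraries were Acta1, Tenm4, Asns, Mthfd2 and Ankrd1, in that order. Genes without a symbol and predicted genes, with Gm or Rik names, were left out, here and for Nnt. The measure was the root mean square distance between centred log2 CPM, which was 0.77 for Acta1 and 1.26 for Ankrd1 against a median of 2.65 over tested nuclear genes. Acta1, the skeletal muscle actin, went from 105 ± 89.5 to 1557 ± 172 CPM (SD, n = 3 each). Ankrd1, a stretch-responsive ankyrin repeat protein of heart muscle, had 33, 27 and 10 counts in controls and 282, 221 and 243 in knockouts. Asns, the asparagine synthetase, had 0 counts in controls and 27, 19 and 33 in knockouts, so that it was higher by at least 17.7-fold, taking 3 counts for the control group. Nearness follows the size of the step between the groups, and the within-group part of these profiles rests on 3 libraries each. For Nnt the nearest genes were Pdha1, Ptp4a2 and Eif4g1, at distances from 0.06 to 0.08.

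Other genes of NAD metabolism were listed from pathway knowledge. Of 74 listed genes, 73 were in the files and 30 were tested, of which 3 were called higher, 1 lower and 26 did not pass (edgeR adjusted p under 0.05). Of all tested genes, 5.35% were called higher and 4.71% lower. The list had a median log2 fold change of 0.10 beside -0.02 over all tested genes. Among 16 other synthesis enzymes, only Nadk, the cytosolic NAD kinase, was tested. It had 45.0 ± 23.9 CPM in controls and 35.2 ± 20.8 CPM in knockouts (SD, n = 3 each) and did not pass. The other 15 held at most 13 counts over the 6 libraries, in Nudt12, and 9 of them had no count. Of 11 genes of precursor transport and breakdown in the files, Slc25a51, the carrier of NAD into mitochondria, and Slc29a1, a nucleoside transporter, were tested and did not pass, with log2 fold changes of -0.70 ± 0.39 and -0.35 ± 0.43 (SE). For these synthesis and transport lists, counts were 0 in both directions by DESeq2 and at an unadjusted p under 0.05 as well.

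NAD-consuming enzymes were measured by few counts, and 7 of 23 were tested, with 0 called higher, 1 lower and 6 not past, beside 4.71% called lower over all tested genes (2 lower and 0 higher at an unadjusted p under 0.05 in edgeR, and 0 called by DESeq2). At that unadjusted threshold, edgeR gave 939 of all 4392 tested genes, in either direction. Art1, an ADP-ribosyltransferase of muscle, fell from 106 ± 29.8 to 36.6 ± 29.0 CPM (n = 3 libraries each, SD; fitted log2 change -1.46 ± 0.46 SE, edgeR adjusted p = 0.0231). Controls had 11, 9 and 10 counts and knockouts 2, 10 and 4, so knockout 2 lay at the control level in counts and below it in CPM. The call was lost with DESeq2, with no low-count filter, and without control 1, control 3, knockout 1 or knockout 3, and the adjusted p ranged from 0.00416 to 0.313 over 13 alternatives. Its direction turned, to 0.52, with no scaling beyond the total count. Tnks2 (-0.22 ± 0.26) and Tnks (0.31 ± 0.33, log2, SE), the tankyrases, did not pass. Sirtuins and Cd38, which are named after their values were seen, were too low to test apart from Sirt2: Sirt3, the deacetylase of the matrix, had 9 counts in controls and 4 in knockouts, and Cd38, an NAD glycohydrolase, 10 and 9.

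Among enzymes and carriers that pass electrons to and from NAD and NADP, 3 of 20 tested rose and 0 fell in edgeR, beside 5.35% higher and 4.71% lower over all tested genes, and 17 did not pass (4 higher and 1 lower at an unadjusted p under 0.05, and 2 higher and 0 lower by DESeq2). The unadjusted threshold was met in edgeR by 939 of all 4392 tested genes, in either direction. Mthfd2, the NAD-dependent methylenetetrahydrofolate dehydrogenase of mitochondria, had 0 counts in controls and 18, 15 and 34 in knockouts, higher by at least 15.01-fold with 3 counts taken for the control group (edgeR adjusted p = 1.25e-11). Got1, the cytosolic aspartate aminotransferase of the malate-aspartate shuttle, rose from 504 ± 57.7 to 1092 ± 88.4 CPM (n = 3 libraries each, SD; fitted log2 change 1.11 ± 0.16 SE, edgeR adjusted p = 2.95e-09). Controls had 41, 47 and 59 counts and knockouts 145, 163 and 164, and Got1 was called under all 15 alternatives (adjusted p from 7.08e-26 to 1.60e-04). Aldh1l2, which makes NADPH from formyltetrahydrofolate in mitochondria, rose from 51.2 ± 14.1 to 120 ± 26.6 CPM (n = 3 libraries each, SD; fitted log2 change 1.20 ± 0.41 SE, edgeR adjusted p = 0.0417). Controls had 4, 7 and 4 counts and knockouts 18, 13 and 21. This call was lost with DESeq2, with no low-count filter, with total library sizes, a minimum count of 10 and TMM over all genes, without any 1 of the controls, without knockout 1 or without knockout 3, and the adjusted p ranged from 5.14e-12 to 0.413 over 15 alternatives. Mdh1, the cytosolic malate dehydrogenase of the same shuttle as Got1 (0.07 ± 0.15, log2, SE), and Ldhb, the heart form of lactate dehydrogenase (0.08 ± 0.15, log2, SE), did not pass. Of the 5 genes not tested, Me2 had 7 counts in controls and 0 in knockouts. Pgd had 6 and 18, G6pdx 4 and 6, Mthfd2l 0 and 1, and Aldh1l1 none. These 5 are named after their values were seen.

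**Figure D3:**
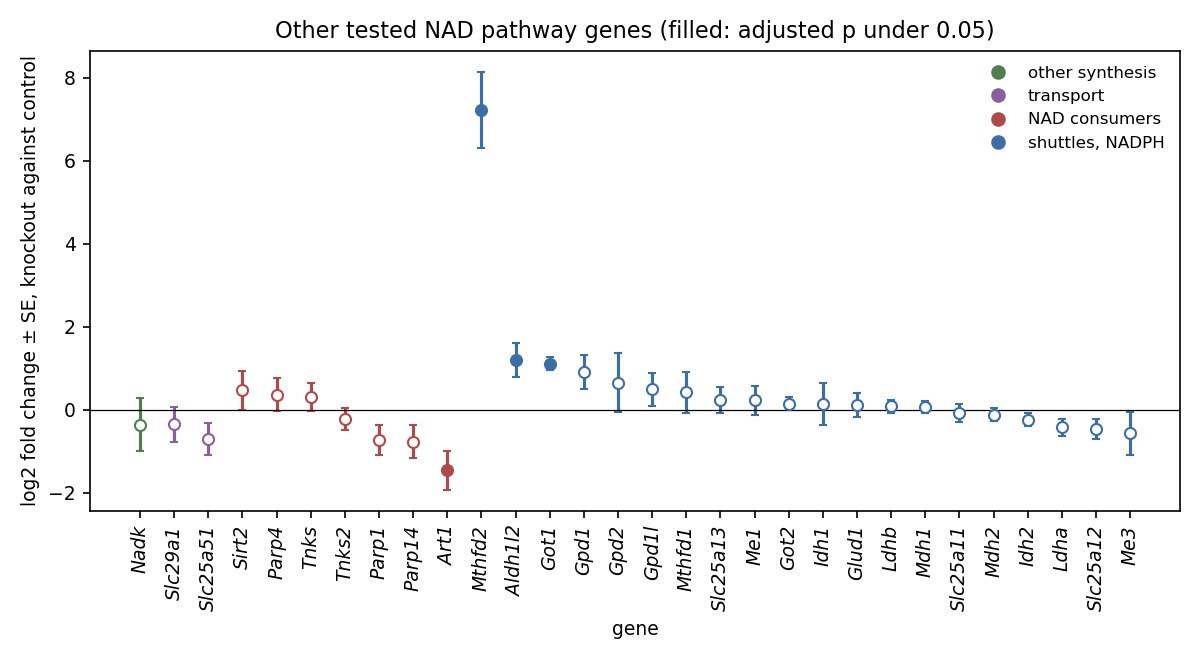
Log2 fold change with SE of the 30 other tested NAD pathway genes, grouped as other synthesis enzymes, transport, NAD consumers, and shuttles with NADPH generation; filled points passed the test. Mthfd2, Aldh1l2 and Got1 are filled above 0 and Art1 below 0, and the fitted value of Mthfd2 depends on the prior because its controls hold no count.

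Genes known to act on Nmrk2 or to work beside its product were also listed. SRF, AMPK and PPAR alpha are known regulators of Nmrk2, and 6 of the 9 genes listed for them were tested, with 0 called higher and 0 lower by edgeR or DESeq2, and 0 at an unadjusted p under 0.05. Prkaa2, the AMPK catalytic subunit of muscle, was at 312 ± 39.2 and 379 ± 32.9 CPM and Srf at 79.5 ± 8.16 and 110 ± 35.4 CPM in controls and knockouts (SD, n = 3 each). Transcript counts do not measure the activity of these proteins. A further list held 11 tested genes of laminin chains, their receptors in muscle and associated proteins. Of these 11, 0 were called higher, 1 lower and 10 did not pass in edgeR, beside 10.1% called in either direction over all tested genes (0 higher and 4 lower at an unadjusted p under 0.05, and 0 by DESeq2). In edgeR, 939 of all 4392 tested genes met the unadjusted threshold, in either direction. Dag1, dystroglycan, fell from 814 ± 91.2 to 582 ± 140 CPM (n = 3 libraries each, SD; fitted log2 change -0.47 ± 0.16 SE, edgeR adjusted p = 0.0425). That call was lost with DESeq2, with no low-count filter, over genes with a count in all 6 libraries, without any 1 of the controls, without knockout 1 or without knockout 2 (adjusted p from 5.82e-09 to 0.497 over 15 alternatives), and its direction turned, to 1.52, with no scaling beyond the total count. The laminin chains Lamc1 (-0.30 ± 0.14) and Lama2 (-0.24 ± 0.14, log2, SE) did not pass.

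Nmrk2 shares chromosome 10 with the targeted gene. Polrmt ends 1.45 Mb before Nmrk2 starts, and 38 tested genes lay within 2 Mb of Polrmt. Apart from Nmrk2, 7 of 37 were higher and 0 lower at an unadjusted p under 0.05 in edgeR, beside 939 of all 4392 tested genes in either direction. The 37 had a median log2 fold change of 0.08, and DESeq2 called 1 higher and 0 lower. At an adjusted p under 0.05 in edgeR, 2 of the 37 were called higher and 0 lower, 5.41% beside 10.1% over all tested genes. Those called were Eef2, a translation elongation factor, at 0.72 ± 0.14 (log2, SE; adjusted p = 1.90e-05 in edgeR), and Atp5d, an ATP synthase subunit, at 0.60 ± 0.20 (adjusted p = 0.0394). They are named after their values were seen. Atcay, a gene beside Nmrk2, had 0 counts in controls and 1 in knockouts. Atcayos, on the opposite strand, shares 270 of the 1854 exon bases of Nmrk2. It had 8, 3 and 9 counts in controls and 0, 0 and 4 in knockouts, which gives a ratio of 0.134 (95% Poisson interval 0.0334 to 0.401), opposite in direction to Nmrk2. No source used here gives the strand setting of the counting, so reads in the shared bases cannot be told apart by strand, and how they bear on either gene was not tested. Polrmt itself had 3, 2 and 1 counts in controls and 2, 5 and 1 in knockouts. Its gene-level count does not resolve exon 3, so it checks neither the deletion nor the labels.

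**Figure D4:**
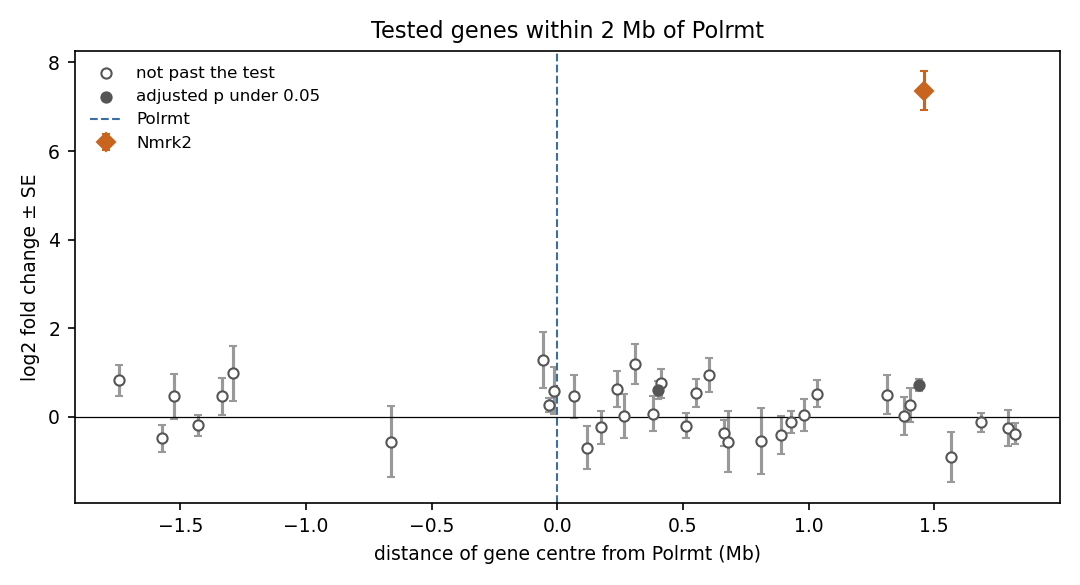
Log2 fold change with SE of the 38 tested genes within 2 Mb of Polrmt against the distance of each gene's centre from Polrmt in Mb. Nmrk2 lies at 7.36, with a bar that understates the counting error of its single control count, and 2 of the other 37 genes, Eef2 and Atp5d, passed the test.

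Markers of heart muscle were abundant in every library, and markers of skeletal muscle fibres were nearly absent. All 9 cardiomyocyte markers were detected and tested (1 called higher, 3 lower), with a summed level of 115710 to 150585 CPM in controls and 123896 to 129420 CPM in knockouts. Marker calls stand beside 5.35% called higher and 4.71% lower over all tested genes. Of 11 markers of skeletal muscle fibres, where Nmrk2 is known to be abundant, 10 were at 0 in every library, among them Myh4, Actn3 and Mylpf, and the other, Tnnt3, had 1 count in 1 knockout. All 6 macrophage markers were detected and summed to 356 to 623 CPM in controls against 158 to 199 CPM in knockouts, with 2 of 4 tested lower. The 4 smooth muscle markers summed to 486 to 917 CPM in controls against 301 to 467 CPM in knockouts, with 1 of 2 tested lower. The 7 fibroblast markers, all detected, summed to 10589 to 11209 CPM in controls against 9149 to 10541 CPM in knockouts, with 1 of 7 tested lower. Endothelial markers (1299 to 1550 CPM in controls, 1092 to 1325 CPM in knockouts), erythroid markers (861 to 1888 and 928 to 1684 CPM) and adipocyte markers (215 to 318 and 230 to 368 CPM, with Adipoq, Plin1 and Ucp1 at 0) overlapped between the groups. The part of the lower macrophage, smooth muscle and fibroblast levels in the values above was not tested.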

How the data were processed

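RNA of crude heart mitochondria was sequenced as paired ends on a MiSeq, per the labels' protocols. HISAT 0.1.6, featureCounts 1.3.5-p4, R 3.2.0, edgeR 3.11.2 and the build GRCm38 are named per the submitters' processing notes. Whole-number counts for each gene were used as deposited by the authors. Which annotation release and strand setting they used is not given in the sources here. Log2 fold changes of 3 genes were copied from the authors' deposited table. The deposited normalised files were not used.

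Symbols, positions and exon lengths came from GENCODE M21 of GRCm38 (37570 nuclear identifiers with a symbol, 1572 without). All genes were fitted together with edgeR 4.0.16 (quasi-likelihood, robust, 2-sided, Benjamini-Hochberg over 4392 genes). The library size was the nuclear count without Gm42418, Lars2, Gm23935, Gm15564 and Mir6236, with TMM over nuclear genes, and filterByExpr used a minimum count of 5 and a minimum total of 15. The SE is the one implied by the F statistic. Ratios use summed counts over summed effective library sizes, with exact conditional 95% Poisson intervals. DESeq2 1.42.0 and other scalings, filters and library sets were alternatives. The fit was tested on simulated data. Replicate libraries differed by chi-square per degree of freedom of 1.19 to 1.43, above the 1 that sampling noise gives. Each was counted as a replicate because its title numbers it as one, which the chi-square alone could not establish.

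Members, lists and tests were chosen with earlier results of these data known. Named genes were the 7 members, up to 6 called genes and the 2 others with the highest mean counts of each list, and the genes of nearest profile to Nmrk2 (5) and Nnt (3); those nearest to Nampt are not reported here. Others are marked as named after their values were seen.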

Additional observations from a re-analysis of the deposited data

How the results depend on the processing

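The log2 fold change of Nmrk2 ranged over 14 alternatives from 6.84 without control 2 to 9.58 without control 1. The set was chosen by the counts of Nmrk2 in these libraries, so this range describes the fit and is no independent support. With no scaling beyond the total count, where the median of all tested genes moved to 2.03, the values of Nampt (1.52), Nadk2 (1.85) and Nnt (2.09) lay above 0, and 99.6% of calls were higher, against 53.2%. Nadk2 ranged from -0.39 to 0.18 over fits that each left out 1 library, above 0 only without knockout 2, and the cause was not tested. All-gene calls, 235 higher and 207 lower, were 5251 and 21 with no such scaling, 86 and 60 with DESeq2, and 193 and 122 with no low-count filter. Without 1 library they were 156 to 216 higher and 119 to 156 lower, the lowest of both without knockout 1, with 121 lower without control 2. The other NAD pathway calls, 3 higher and 1 lower, were 31 and 0 with no such scaling, and 2 to 3 and 0 to 1 without 1 library. The call that was lower, Art1, was 0 with DESeq2, with no low-count filter, with a minimum count of 10, and with the filter on total library sizes, where the latter 2 did not test the gene. With the replicate number as a block, 216 genes were higher and 178 lower, Nmrk2 stood at 7.36, and the calls of members and pathway lists did not change. Deviations of same-numbered libraries correlated at -0.02, 0.008 and 0.03 over 4368 genes, and not every library correlated best with its own number. Replicate differences were mostly counting noise, which can hide a pairing, so these values do not settle whether the numbers pair the libraries. Depth limits Nmrk1, Nmnat1 and Nmnat3. Nmrk1, with 2 against 1 counts, is given no fold under any setting. For Nmnat1 and Nmnat3 no value could be had where leaving out a library left a group with no count, nor under DESeq2, the block, a minimum count of 10 or genes counted in all 6 libraries, and the latter also gave none for Nmrk2. Nadk2 was not tested with a minimum count of 10, with either library size. Log2 ratios of summed counts, chosen after seeing the data, gave 7.74 for Nmrk2.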

Other observations

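Nmrk2 is outside the 6319 genes of the authors' deposited table of the comparison, which holds Nampt, Nadk2 and Nnt of the 7 NAD synthesis genes. No gene of that table has a count of 0 in any library, and Nmrk2 had 0 in controls 2 and 3. Of the 423 nuclear genes called here with edgeR (adjusted p under 0.05), 41 lie outside the table, 28 of them higher in knockouts and 13 lower. A count of 0 in a control was found in 28 of the 41, which need not be the same 28. Controls had fewer nuclear counts than knockouts, and genes with a 0 are missing from the table. Nothing is therefore read from the split by direction. The 28 that were higher make up 11.9% of the 235 nuclear genes called higher. Among them are Asns, Mthfd2, Trib3, a pseudokinase of the stress response, Gdf15, a secreted stress signal, and Tenm4, a teneurin of the cell surface, named after their values were seen. Trib3 and Gdf15 had 0 counts in every control, and Tenm4 had 2 control counts in all against 133 in knockouts.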
